A study of Homo sapiens with 48 samples.

Results

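The genes described are 26 of the 452 genes on a targeted RNA panel whose read level was highest in stem cells driven to definitive endoderm. They were chosen by measured values of these libraries. Reads were summed over the probes of a gene, divided by the library total to give CPM, counts per 1000000 reads, and averaged per group. A gene was taken when its endoderm mean was at least 20 CPM, was at least 2 times each of the undifferentiated, ectoderm and mesoderm means, and was above the mean of the embryoid bodies. Of 36 genes that met these limits, 10 were left out by name (FZD5, GATA6, HHEX, LEFTY1, LEFTY2, NPPB, OTX2, SOX17, TAGLN and TDGF1). Some of the best-known endoderm factors are thus not among the 26, while EOMES, FOXA2 and LHX1 are. The levels in these groups therefore selected the genes and are given as a description, without a test. The comparison of the embryoid body arms did not enter the selection and was tested.

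All 48 libraries came from WA09, the established stem cell line also known as H9, which was first derived from a human embryo and has a normal genotype per the labels. They were made by RASL-Seq: neighbouring DNA probes are ligated on captured polyadenylated RNA, and the amplified ligation products are sequenced and counted. Undifferentiated cells without treatment (hESC, 4 libraries) were set beside ectoderm made with 100 nM LDN-193189 plus 2 µM A83-01 in E6 medium for 6 days, mesoderm made with the STEMdiff Mesoderm Induction Medium for 5 days and endoderm made with the STEMdiff Definitive Endoderm Kit for 5 days, with 4 libraries each. Embryoid bodies (EBs), free-floating aggregates that differentiate without a lineage kit, were seeded at 20000 dissociated cells per well and cultured for 7 days in E6 medium. For their first 24 hours the medium held either the CEPT cocktail, a cytoprotective mixture, or Y-27632, a ROCK inhibitor that is widely used to keep dissociated stem cells alive. Each arm had 16 libraries. The kits' contents are not stated in the labels, all groups derive from the same line, and nothing in the labels says that libraries of a group came from separate cultures, so p-values measure the spread between libraries only.

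Definitive endoderm is the embryonic layer that gives rise to gut, liver, pancreas, lung and thyroid. It forms where Nodal, a ligand of the TGF-beta superfamily, signals strongly through SMAD proteins together with WNT, and the T-box factor EOMES, the forkhead factor FOXA2 and the LIM homeobox factor LHX1 act early in this step. Nodal also induces its own inhibitors, and forming endoderm is an epithelium that passes through a rearrangement of its cell contacts.

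The endoderm cultures carried the markers of their label. SOX17, an endoderm factor outside the 26 genes, was at 1755 ± 235 CPM (mean ± SD, n = 4) in endoderm, with no read in hESC, 1.04 ± 1.56 CPM in ectoderm and 0.318 ± 0.636 CPM in mesoderm. Of 8 endoderm genes on the panel, 3 of them among the 26, 7 had their highest group mean in endoderm, and SOX7 did not. SOX17, GATA6 and HHEX met the same limits as the 26 before they were left out by name. This count was thus largely set by the selection and is no test. Of the 7, only FOXA1 had not met the limits, at 81.4 ± 6.95 CPM in endoderm and 60.5 ± 8.33 CPM in hESC. Of the yolk sac, liver and gut list, 2 genes were on the panel. AFP had no read in endoderm, nor in hESC, ectoderm or mesoderm. ALB was low, at 2.86 ± 1.26 CPM in endoderm and 4.47 ± 1.32 CPM in mesoderm. In hESC the pluripotency genes NANOG and LIN28A were at 1852 ± 213 and 4781 ± 505 CPM, but POU5F1, a defining gene of these cells, was only at 8.02 ± 2.56 CPM. In endoderm NANOG was at 49.2 ± 10.5 CPM. LIN28A did not set hESC apart, at 4965 ± 51.6 CPM in endoderm and 6184 ± 675 CPM in ectoderm. Genes of the neural list were not absent from endoderm: LMX1A stood at 244 ± 8.35 CPM there, above its ectoderm mean of 148 ± 16.6 CPM.

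Library totals ran from 379810 to 5577868 reads, and the shallowest library was Y27 EB replicate 15. LEFTY2, a Nodal inhibitor that was left out by name, alone stood at 278166 ± 17571 CPM in endoderm, so the CPM of every other gene was lowered there relative to the other groups. With trimmed-mean (TMM) scaling over all 48 libraries, which lessens this, 36 genes met the same limits in place of 26, and all 26 were among them. Within the limits, the genes closest to the minimum were ETNPPL, NKX2-1 and PDGFRA at endoderm means of 22.9, 32.7 and 34.4 CPM, and the closest outside were KCNJ10, TBR1 and PPARG at 14.8, 7.88 and 5.82 CPM. By ratio to the highest other control group, KRT18, EPCAM and OCLN lay just inside at 2.15, 2.15 and 2.29, and HSPA5, ATP2B4 and KLF5 just outside at 1.94, 1.83 and 1.81. Against the EB mean, NQO1, PDGFRA and OCLN lay inside at ratios of 1.55, 1.61 and 1.94, and the only genes kept out by this limit alone were RGS5 and SOX10 at 0.378 and 0.0306.

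The promoter sequences of the genes were read from RefSeq (GRCh38.p14) to see what they share beyond the measured levels. All 26 symbols matched RefSeq genes, and 18 had an entry in the promoter table. On the gene strand, 6 of these 18 carried the letters TATAA with the first base between 40 and 20 bases before the annotated start, against 3.91% of all 35116 promoters in the table. Over all 250 bases before the start and both strands, the same 6 of 18 held TATAA, against 18.9% of all promoters. This search was chosen after the sequences had been seen and was not tested. The search window itself bounds the position of TATAA, so a likeness of position among these genes is not a result. The last 60 bases before the start are shown for these 6 genes, 5′ to 3′ on the gene strand. The TATAA of this TATA-box-like element is in capitals.
DIO3: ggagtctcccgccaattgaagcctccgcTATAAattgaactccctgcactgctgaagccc
EOMES: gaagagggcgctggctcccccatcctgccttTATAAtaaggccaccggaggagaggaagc
NODAL: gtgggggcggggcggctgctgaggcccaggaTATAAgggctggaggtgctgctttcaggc
NQO1: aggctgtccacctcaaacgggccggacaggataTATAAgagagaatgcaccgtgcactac
PDGFRA: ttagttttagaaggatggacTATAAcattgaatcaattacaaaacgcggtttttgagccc
SERPINB9: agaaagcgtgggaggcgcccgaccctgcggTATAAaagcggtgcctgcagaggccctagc
The stretches lie at chr14:101561435-101561494 (plus strand) for DIO3, chr3:27722324-27722383 (minus) for EOMES, chr10:70441682-70441741 (minus) for NODAL, chr16:69726561-69726620 (minus) for NQO1, chr4:54229233-54229292 (plus) for PDGFRA and chr6:2903310-2903369 (minus) for SERPINB9. For EOMES and NODAL, the start that the promoter table uses lies inside the RefSeq gene range given with their values, so these stretches precede that start and not the first base of the range. In EOMES and NODAL the first T lay 29 bases before the start, in SERPINB9 30, in DIO3 32 and in NQO1 27. Only in PDGFRA was it farther away, at 40, the edge of the window searched. Both strands of the 250 bases before the start were also searched for the letters TGTTTAC (forkhead factors), TGTGGATT (FOXH1, a partner of SMAD proteins), AGGTGTGA (T-box factors), AGATAA (bound by GATA factors) and CTTTGAT (TCF/LEF), and for the retinoid direct repeat. None of these was found in the 18 windows, and the share of all promoters that holds each was 2.98%, 0.709%, 0.786%, 9.17%, 2.26% and 0.0142% in that order. A match or its lack describes only these letters in these windows.

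Among the transcription factors, EOMES (chr3:27715953-27722713, read by 1 probe) was read mainly in endoderm. Its endoderm libraries held 251, 219, 433 and 203 CPM in replicates 1 to 4, while hESC held 0, 0.714, 0 and 0, ectoderm 0, 0.330, 0 and 1.499 and mesoderm 0.662, 0.895, 4.24 and 2.58 CPM. EOMES had lowest, median and highest values of 0, 0 and 6.07 CPM in CEPT EBs and 0, 0 and 5.23 CPM in Y27 EBs. The endoderm mean of 277 ± 106 CPM was 132 times that of mesoderm, the next group, and endoderm replicate 3 was the highest of its group by a wide gap.

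FOXA2 (chr20:22580998-22585490, 1 probe), a forkhead factor of endoderm and midline, had endoderm and mesoderm in the same order. FOXA2 stood at 197, 189, 281 and 174 CPM in endoderm, 2.76, 3.21, 0.564 and 2.83 in hESC, 0, 0.330, 0 and 0 in ectoderm and 3.31, 1.19, 7.63 and 3.16 CPM in mesoderm. FOXA2 in EBs had lowest, median and highest values of 0, 0.799 and 5.29 CPM in CEPT EBs and 0, 0 and 8.21 CPM in Y27 EBs. Replicate 3 was again the highest endoderm library, and the endoderm mean was 55.0 times that of mesoderm.

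LHX1 (chr17:36936785-36944612, 2 probes), a LIM homeobox factor, was the only one of the early factors with enough EB reads to be tested there. Endoderm libraries held 561, 519.6, 462 and 547 CPM of LHX1, against 18.9, 16.7, 20.4 and 14.9 CPM in mesoderm, 3.15, 2.50, 2.82 and 1.41 in hESC and 0, 0, 0 and 0.900 in ectoderm. The next group was mesoderm, at a ratio of 29.5, and among the EBs only CEPT EB replicate 15, at 22.0 CPM, exceeded the mesoderm libraries.

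NKX2-1 (chr14:36516397-36520232, 2 probes), the homeobox factor of lung, thyroid and ventral forebrain, was low but clean. Its endoderm libraries held 31.2, 35.6, 33.5 and 30.3 CPM, 473 reads in all. The hESC libraries together had 1 read, ectoderm and mesoderm had none, all 16 Y27 EB libraries had none, and the CEPT EBs had 6 reads, all in replicate 7. Against 3 reads in each library, the limit that a count of 0 allows, endoderm was at least 30.3-fold higher than ectoderm and at least 32.5-fold higher than mesoderm. The ratio of pooled reads to hESC was 301 with an exact 95% interval from 53.7 to 11897, which covers counting error only.

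For the signalling genes, NODAL itself (chr10:70431936-70447951, 2 probes) held 186, 196, 172 and 193 CPM in the endoderm libraries. NODAL was next highest in hESC, with 7.09, 12.1, 10.7 and 8.48 CPM, and nearly at 0 in ectoderm (0, 0, 0 and 0.600) and mesoderm (0, 0.597, 0.424 and 0.574 CPM). NODAL in EBs had lowest, median and highest values of 0, 2.91 and 10.2 CPM in CEPT EBs and 0, 0 and 28.3 CPM in Y27 EBs, and only Y27 EB replicate 16 exceeded the hESC libraries. Of 6 panel genes of the Nodal and TGF-beta list, 4 had their highest mean in endoderm: NODAL, both LEFTY genes and the coreceptor TDGF1. The exceptions were GDF3 and ID1. All 4 had met the selection limits, the LEFTY genes and TDGF1 before they were left out by name. The count was thus set by the selection and is no test.

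The products of 3 genes act on WNT proteins as antagonist or receptor. SFRP1 (3 probes), a secreted WNT antagonist, stood at 10181, 9737, 8869 and 11579.5 CPM in endoderm, 3831, 4206, 3911 and 4372 in ectoderm, 2790.1, 3060.3, 3374 and 3142 in hESC and 988, 1038, 923 and 1009 CPM in mesoderm. SFRP1 had lowest, median and highest values of 928, 1623 and 2949 CPM in CEPT EBs and 1135, 2185 and 3563 CPM in Y27 EBs. It was thus read in every library, and endoderm was only 2.47 times ectoderm.

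FZD7 (chr2:202033855-202038441, 3 probes), a frizzled receptor for WNT, held 3047, 2904, 3077 and 3129.8 CPM in endoderm, the tightest of the 26 genes across those libraries (coefficient of variation 3.18%). FZD7 was at 927, 1009, 1079 and 971 CPM in mesoderm, 752, 851, 795 and 735 in ectoderm and 492, 506, 559 and 518 in hESC. FZD7 in EBs had lowest, median and highest values of 419, 558 and 791 CPM in CEPT EBs and 794, 1001 and 1615 CPM in Y27 EBs, so that the Y27 arm, not a control group, came next by CPM, at a ratio of 2.84. With TMM factors over the 48 libraries mesoderm came next, at a ratio of 4.09.

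ROR2 (chr9:91722601-91950228, 2 probes), a receptor tyrosine kinase for noncanonical WNT, had 1715, 1692, 1525 and 1763 CPM in endoderm. ROR2 stood at 147, 162, 109 and 175 CPM in ectoderm, 129, 144, 129 and 142 in mesoderm and 51.6, 59.6, 58.6 and 52.3 in hESC. ROR2 in EBs had lowest, median and highest values of 80.2, 138 and 269.5 CPM in CEPT EBs and 119, 184 and 331 CPM in Y27 EBs. Every EB library lay above all hESC libraries, and the ratio of endoderm to the Y27 arm was 9.08. Of its endoderm reads, 92.3% came from 1 of the 2 probes.

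The other receptor and ligand genes are given by their means. PDGFRA (chr4:54229293-54298245), the PDGF receptor of mesoderm and also of early endoderm, was at 34.4 ± 1.62 CPM in endoderm and 14.4 ± 2.25 CPM in mesoderm, but EBs reached 63.2 CPM and overlapped endoderm. MERTK, a receptor for the uptake of dying cells, was at 412 ± 17.8 CPM in endoderm and 77.5 ± 7.46 CPM in hESC, a ratio of 5.31. GAL, which encodes the neuropeptide galanin, was at 1357 ± 81.4 CPM in endoderm, 590.4 ± 94.5 in hESC and only 6.13 ± 1.88 CPM in ectoderm.

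Among the enzymes, CYP26A1 (chr10:93073475-93077885, 3 probes), which breaks down retinoic acid, was read in all groups but nearly missing from mesoderm. Endoderm libraries held 14279, 14151, 12608 and 14214 CPM, hESC 209.5, 261, 261 and 256 and ectoderm 12.98, 13.5, 11.4 and 36.0 CPM. In mesoderm CYP26A1 had 3 reads over the 4 libraries, against 201828 in endoderm. CYP26A1 in EBs had lowest, median and highest values of 13.2, 59.8 and 189.5 CPM in CEPT EBs and 14.4, 63.0 and 142 CPM in Y27 EBs. The groups stood in the order endoderm, hESC, EBs, ectoderm and mesoderm; endoderm, hESC and mesoderm overlapped no other group, and the EB arms overlapped each other and ectoderm. The ratio to hESC was 55.9.

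CPE (chr4:165379008-165498547, 3 probes), carboxypeptidase E, which trims peptide hormone precursors, had the EB arms next to endoderm. CPE stood at 8434, 8771, 7887 and 8557 CPM in endoderm, 502, 553, 394 and 506 in ectoderm, 248, 273, 251 and 212 in hESC and 105, 109.5, 89.0 and 107 CPM in mesoderm. CPE in EBs had lowest, median and highest values of 328, 811 and 1403 CPM in CEPT EBs and 702, 1155 and 1632 CPM in Y27 EBs. All 32 EB libraries lay above every hESC library, and endoderm was 7.21 times the Y27 arm.

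DIO3 (chr14:101561495-101563452, 1 probe), the deiodinase that inactivates thyroid hormone, held 84.5, 84.2, 74.8 and 91.5 CPM in endoderm, 7.79, 9.91, 10.95 and 12.6 in ectoderm and 2.98, 3.88, 1.70 and 3.16 CPM in mesoderm, with no read in hESC. DIO3 in EBs had lowest, median and highest values of 0, 1.52 and 9.80 CPM in CEPT EBs and 0, 0 and 3.39 CPM in Y27 EBs. Ectoderm came next, at a ratio of 8.12, and against 3 reads in each hESC library endoderm was at least 62.5-fold higher.

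The remaining enzymes were given by their means. NQO1, a quinone reductase, was at 336 ± 28.4 CPM in endoderm and 102 ± 9.13 in hESC, and the EB libraries (78.3 to 376 CPM) overlapped endoderm. PTGDS, a prostaglandin D synthase, was at 150.3 ± 12.5 CPM in endoderm, with 6.56 as its ratio to the Y27 arm. ETNPPL, which breaks down phosphoethanolamine, was at 22.9 ± 3.24 CPM in endoderm and 4.51 ± 2.02 CPM in hESC.

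Both protease inhibitors of the serpin family were high in endoderm with mesoderm next. SERPINE2 (chr2:223975045-224039286, 3 probes), a secreted inhibitor of thrombin and other serine proteases, held 6753, 6768, 5952 and 6948 CPM in endoderm, 1735, 1783, 1568 and 1881 in mesoderm, 389.5, 476, 489.9 and 435 in hESC and 249, 272, 211 and 299.9 CPM in ectoderm. SERPINE2 in EBs had lowest, median and highest values of 184, 271 and 445 CPM in CEPT EBs and 167, 299 and 632 CPM in Y27 EBs. EBs thus overlapped hESC and ectoderm and lay below mesoderm, and the ratio of endoderm to mesoderm was 3.79.

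SERPINB9 (chr6:2887270-2903309, 3 probes), an intracellular inhibitor of granzyme B, stood at 4829, 4731, 4098 and 4408 CPM in endoderm and 243, 278, 201 and 297 CPM in mesoderm. SERPINB9 was lower, at 80.0, 111, 109 and 106 CPM in hESC and 2.22, 5.29, 6.57 and 5.70 CPM in ectoderm. SERPINB9 in EBs had lowest, median and highest values of 52.9, 147 and 363 CPM in CEPT EBs and 97.8, 209 and 935 CPM in Y27 EBs. Its highest EB library was Y27 EB replicate 15, the shallowest, and the ratio of endoderm to mesoderm was 17.7.

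SLC7A5 (chr16:87830023-87869507, 3 probes), a transporter of large neutral amino acids, also had mesoderm next. SLC7A5 stood at 3593, 3664, 3073 and 3044 CPM in endoderm, 1032, 1129, 915 and 1130.0 in mesoderm, 196, 279, 271 and 229 in hESC and 49.7, 50.9, 42.0 and 55.8 CPM in ectoderm. Endoderm, mesoderm and hESC did not overlap one another, and the ratio to mesoderm was 3.18.

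The 4 epithelial genes had hESC or EBs next to endoderm by CPM. EPCAM (chr2:47369311-47387020, 3 probes), an epithelial adhesion molecule also carried by stem cells, held 5267, 5214, 4832 and 5498 CPM in endoderm and 2259.9, 2469.9, 2585 and 2352 CPM in hESC, a ratio of 2.15. EPCAM was near 200 CPM in both other control groups, at 205, 206, 163 and 241 in ectoderm and 209.7, 221, 195 and 233 in mesoderm. KRT18 (chr12:52948855-52952906, 3 probes), a keratin of simple epithelia, was at 3611, 3406, 4329 and 3536 CPM in endoderm, 1349, 1906, 1702 and 1976 in hESC, 1473, 1457, 2239 and 1416 in mesoderm and 449, 443, 621 and 426 CPM in ectoderm. The KRT18 values of hESC and mesoderm overlapped, and with TMM factors over the 48 libraries mesoderm came next, at a ratio of 3.04. KRT18 in EBs had lowest, median and highest values of 62.9, 104 and 368 CPM in CEPT EBs and 36.9, 86.9 and 758 CPM in Y27 EBs. Replicate 3 was the highest KRT18 library in endoderm, mesoderm and ectoderm, and it was also the shallowest library of each of these groups. KRT18 has many near-identical processed copies in the genome, so its reads are less certain than those of the other genes.

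The tight-junction genes differed from each other. OCLN (chr5:69492547-69558104, 3 probes), occludin, stood at 135, 135, 104 and 135 CPM in endoderm, 41.7, 52.1, 56.9 and 71.6 in hESC, 53.4, 61.8, 40.7 and 61.8 in ectoderm and 8.27, 9.85, 6.36 and 12.1 CPM in mesoderm, and the highest EB library overlapped the lowest endoderm library. CLDN1, claudin-1, was more selective, at 204 ± 21.6 CPM in endoderm, 31.1 ± 2.65 in hESC and at most 6.77 CPM in any EB library. Finally, PPP1R16B, a regulatory protein of a serine/threonine phosphatase, was at 250.1 ± 16.4 CPM and TMEM63A, a mechanosensitive channel, at 66.6 ± 10.7 CPM in endoderm, both with hESC next at ratios of 4.70 and 3.65.

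**Figure D1:**
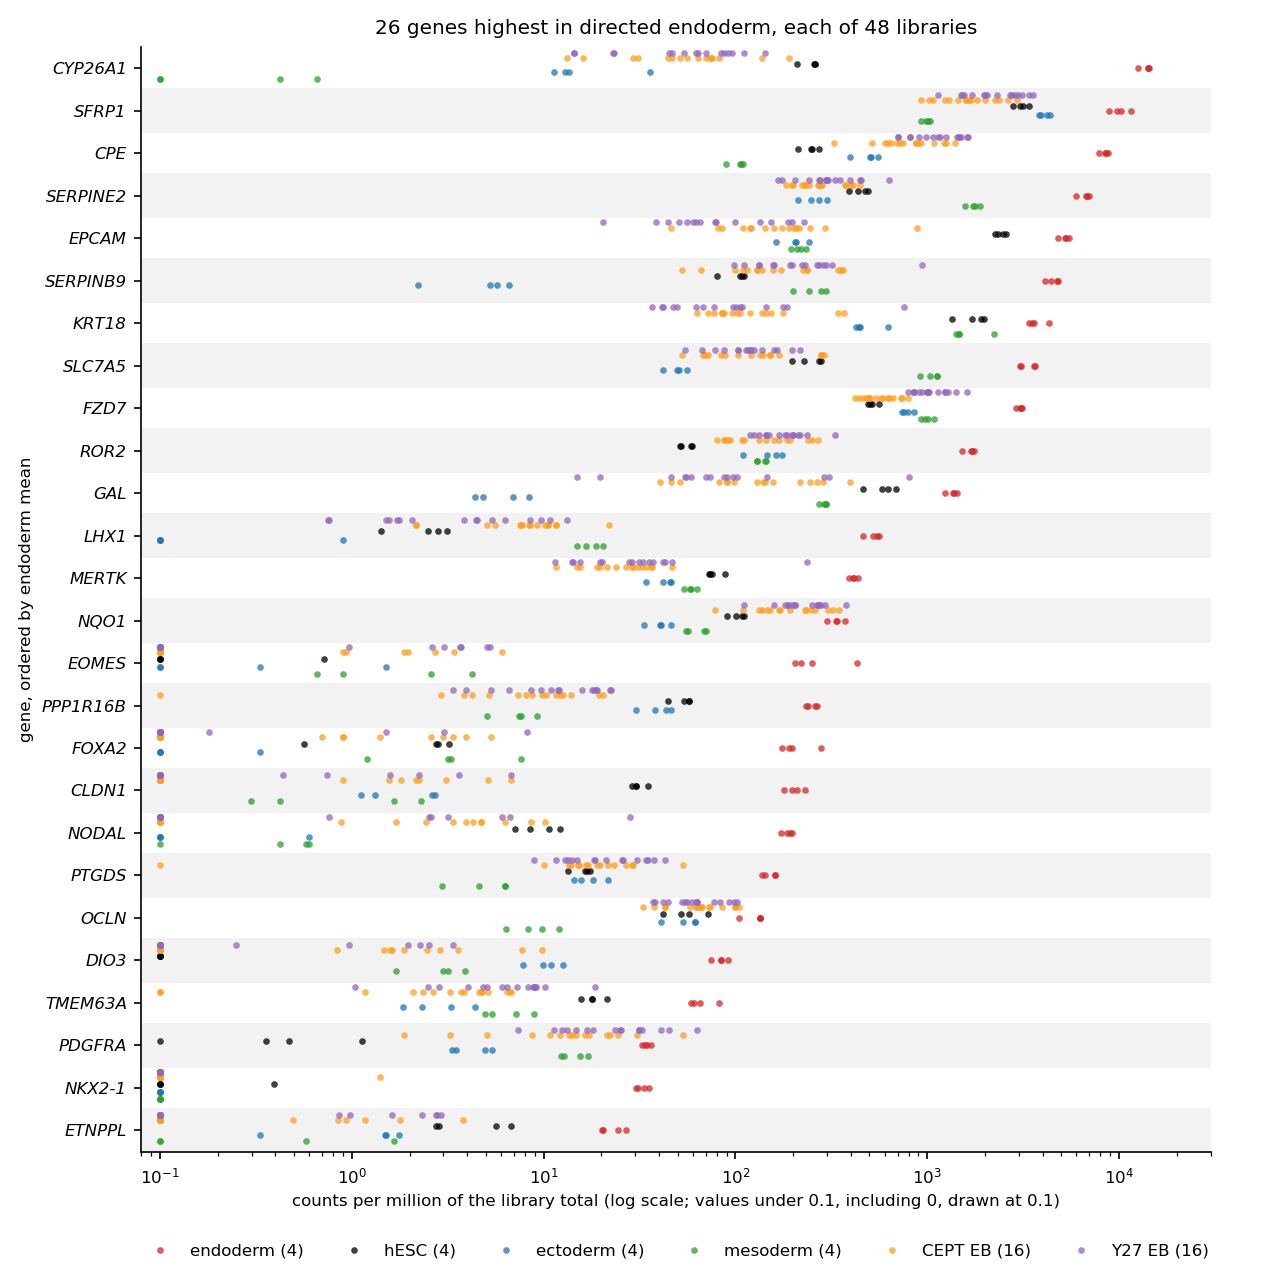
Read level of each of the 26 genes (rows) in each of the 48 libraries (points), in CPM on a log axis, with the group given by colour. The 4 endoderm points lie to the right of the other 44 libraries in 23 of the 26 rows and overlap EB points in NQO1, OCLN and PDGFRA by this scaling.

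Over the 26 genes, every endoderm library lay above all other 44 libraries in 23, and the exceptions were NQO1, OCLN and PDGFRA. With TMM factors over the 48 libraries it did so in all 26, and for PDGFRA the lowest endoderm library then stood at 54.7 CPM beside 51.0 in the highest other library. The selection used the means of the same libraries, so these counts were largely set by it and are no test. How many of all 452 panel genes are separated in this way was not counted. The group next to endoderm by its mean was hESC for 11 genes, mesoderm for 6, ectoderm for 2, the Y27 arm for 6 and the CEPT arm for 1. With the TMM factors the next group was another one for 5 genes, mesoderm for FZD7, ROR2 and KRT18 and the CEPT arm for NQO1 and PTGDS. The ratio to that next group had a median of 5.20, was above 10 for 7 genes (NKX2-1, EOMES, CYP26A1, FOXA2, LHX1, NODAL and SERPINB9) and below 3 for 8. The 26 genes together took 6.47 ± 0.290% of endoderm reads (n = 4), 1.01 ± 0.0819% in hESC, 0.762 ± 0.0205% in mesoderm, 0.674 ± 0.0354% in ectoderm, 0.483 ± 0.132% in CEPT EBs (n = 16) and 0.629 ± 0.143% in Y27 EBs (n = 16). These sums weigh the well-read genes most. In lysates of whole cultures, fewer cells that express a gene and less RNA per cell cannot be told apart.

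The probes of a gene gave the same order at the top. All 65 probes of the 26 genes had their highest group mean in endoderm, including each probe of the 22 genes with several. The selection used the sums of these probes in the same groups, so this was largely set by it and is no test. The endoderm libraries were close to each other, with a median coefficient of variation of 7.79% over the 26 genes, apart from EOMES (38.3%) and FOXA2 (22.8%), whose spread came with the high replicate 3. That library was the lowest of the 4 for 15 of the 26 genes and had the smallest endoderm total (2982467 reads), and its part in these spreads was not tested.

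**Figure D2:**
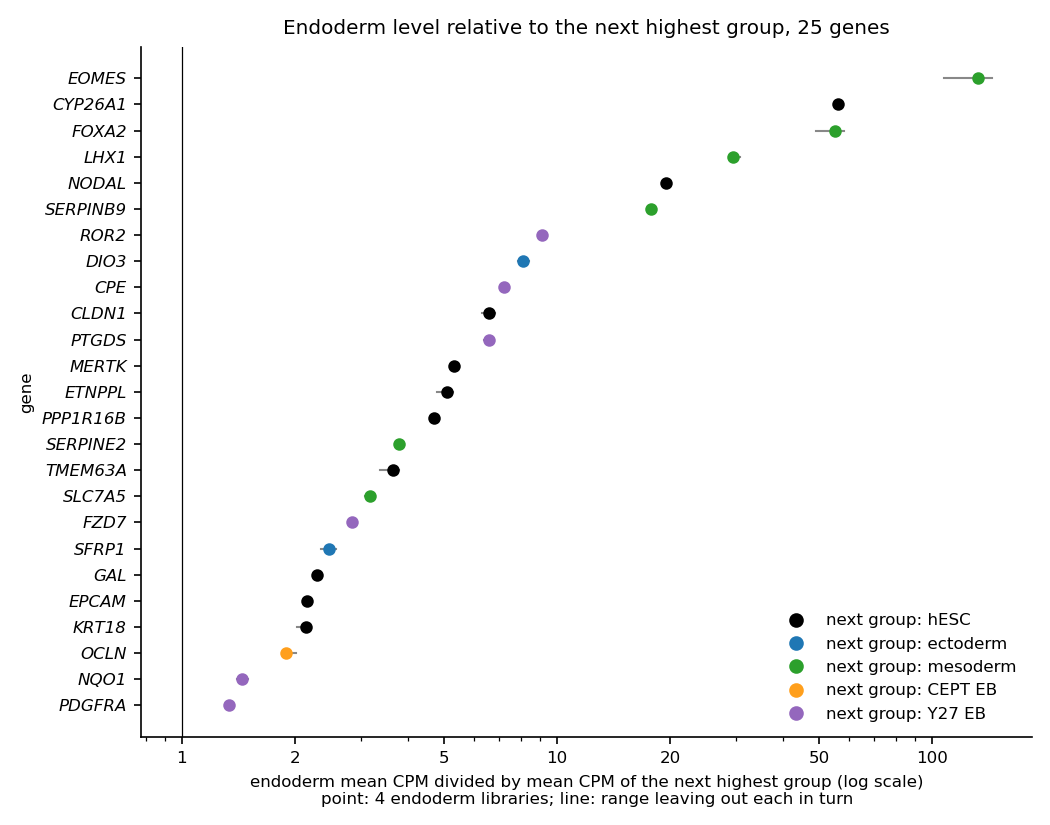
Endoderm mean divided by the mean of the next highest group for 25 of the genes (log axis), coloured by which group came next, with a line for the range when each endoderm library was left out in turn. NKX2-1 is not drawn because its next group held 1 read; the ratios run from 132 for EOMES to 1.33 for PDGFRA.

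Whether these genes differed in EBs between the cytoprotective mixture and Y-27632 was asked by comparing the CEPT and Y27 arms, 16 libraries each. There was no EB arm without either treatment, so a difference cannot be assigned to CEPT or to Y-27632. FZD7, the frizzled receptor, was lower after CEPT, while the adhesion gene EPCAM, the homeobox factor LHX1, the amino acid transporter SLC7A5 and occludin (OCLN) were higher. With edgeR's quasi-likelihood test and Benjamini-Hochberg adjustment over 382 genes, 112 genes or 29.3% were called at an adjusted p under 0.05. Of the 26 genes, 19 passed the filter on low counts and 5 of them (26.3%) were called. In the higher direction it was 4 of 19 against a background of 14.1%, and in the lower direction 1 of 19 against 15.2%. The total share called was near that of all genes. The median log2 fold change was 0.08 over the 19 genes and -0.02 over all 382. In these EB values CPM are scaled by TMM factors.

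FZD7 had the smallest p-value of all 382 genes. Its lowest, median and highest values were 488, 655 and 832 CPM in CEPT EBs and 738, 915 and 1199.8 CPM in Y27 EBs. All 16 CEPT libraries lay below the Y27 median, and the ranges overlapped only because CEPT EB replicate 7 was higher than the rest of its arm, whose next value was 674 CPM. The means were 632 ± 83.1 and 949 ± 119 CPM (SD, n = 16 each), and the log2 fold change was -0.59 ± 0.07 (SE, edgeR adjusted p = 2.93e-07). Each of its 3 probes was called when tested alone, with log2 fold changes of -0.71, -0.55 and -0.61.

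EPCAM had the largest difference of the 19 genes. EPCAM ranged over lowest, median and highest values of 47.2, 180.2 and 999.9 CPM in CEPT EBs and 15.6, 67.1 and 199.8 CPM in Y27 EBs. Of the 16 CEPT libraries, 15 lay above the Y27 median, though the arms overlapped. The means were 232 ± 221 and 87.3 ± 56.1 CPM, with a log2 fold change of 1.42 ± 0.34 (edgeR adjusted p = 0.00220). The highest value belonged to CEPT EB replicate 7, which was also the highest of its arm for the stem cell genes NANOG (149 CPM by library total, against at most 105 in the others) and TDGF1 (569.7 against 235). GDF3 was also highest in replicate 7 (53.0 against 49.7), but POU5F1 was not, at 1.40 CPM against up to 6.43 in the others. Without that library the CEPT mean of EPCAM was 181 ± 87.0 CPM (n = 15), and its log2 fold change was 1.06 ± 0.29 (edgeR adjusted p = 0.00658). All 3 EPCAM probes were called when tested alone.

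LHX1 was low in both arms. LHX1 had lowest, median and highest values of 2.29, 8.99 and 20.7 CPM in CEPT EBs and 0.614, 3.55 and 12.2 CPM in Y27 EBs, and 14 of 16 CEPT libraries lay above the Y27 median. The means were 9.61 ± 4.40 and 4.50 ± 3.81 CPM, a log2 fold change of 1.15 ± 0.39 (edgeR adjusted p = 0.0228). These levels rest on 479 and 294 reads in all and are far under the 462 CPM of the lowest endoderm library. When scaled by library totals alone, the edgeR adjusted p was 0.0546, above the threshold.

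OCLN and SLC7A5 differed by less. OCLN had lowest, median and highest values of 48.7, 69.9 and 101 CPM in CEPT EBs and 38.6, 55.4 and 75.6 CPM in Y27 EBs, and 15 of 16 CEPT libraries lay above the Y27 median. The OCLN log2 fold change was 0.35 ± 0.12 (edgeR adjusted p = 0.0202). SLC7A5 had 65.7, 137 and 262 CPM in CEPT EBs and 61.9, 97.2 and 160.1 CPM in Y27 EBs, in the same order, with 12 of 16 CEPT libraries above the Y27 median. Its log2 fold change of 0.46 ± 0.17 (edgeR adjusted p = 0.0416) was near the threshold and was lost in 16 of the 32 fits that left out 1 library. With library totals alone, which shifted the median of all genes to -0.32, neither gene was called (edgeR adjusted p = 0.802 for OCLN and 0.489 for SLC7A5). When probes were tested alone, a single OCLN probe was called (log2 fold change 0.42, edgeR adjusted p = 0.0137). The other OCLN probes gave 0.30 and -0.12 (edgeR adjusted p = 0.342 and 0.912). No SLC7A5 probe was called alone (edgeR adjusted p = 0.0591, 0.0880 and 0.841).

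**Figure D3:**
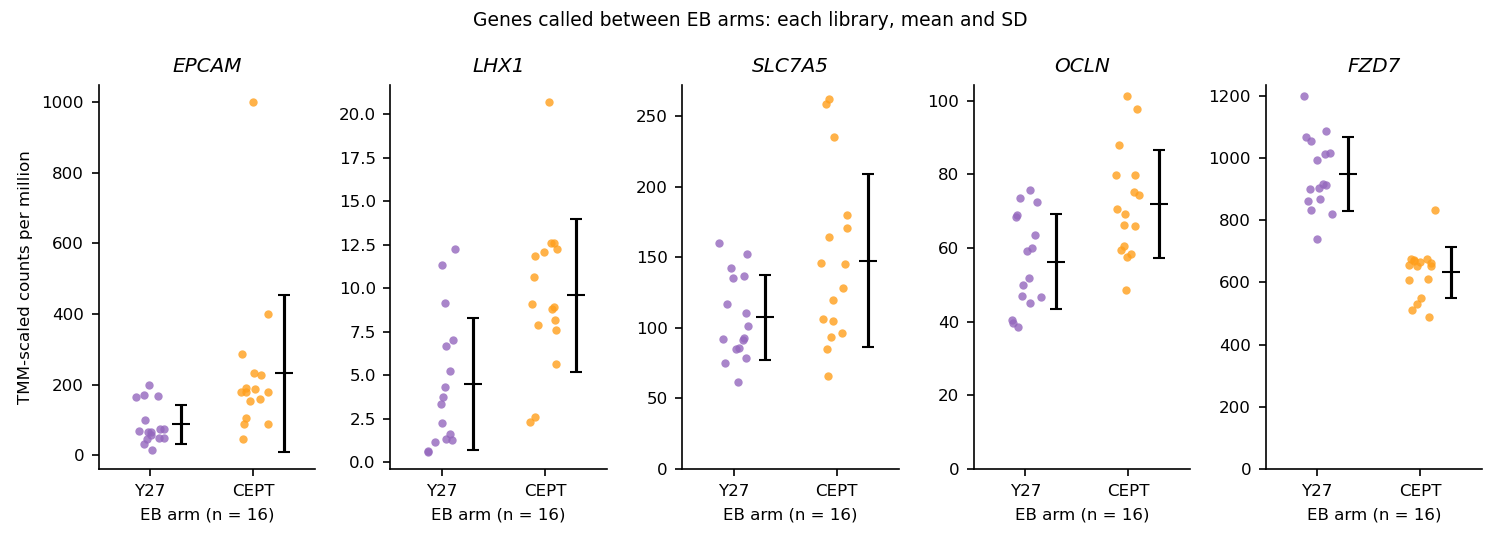
TMM-scaled CPM of the 5 genes called between the EB arms, with each of the 16 libraries per arm as a point and the mean with its SD as a bar. FZD7 separates the arms apart from a single CEPT library, the other 4 genes overlap, and the CEPT library near 1000 CPM for EPCAM is replicate 7.

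Of the 14 genes tested and not called, 6 had a log2 fold change above 0 and 8 below. KRT18 (0.38 ± 0.35, edgeR adjusted p = 0.484) depended on a single library. Y27 EB replicate 15 held 655 CPM of it against a Y27 median of 73.1 CPM. That library also held the most HAND1 of its arm, a mesoderm gene, at 4644 CPM by library total against at most 225 in the other Y27 EBs. Without it KRT18 was called higher in CEPT, with a log2 fold change of 0.87 ± 0.27 (edgeR adjusted p = 0.0142). The log2 fold changes of MERTK and SERPINB9, for which this library was also the highest of its arm, went from -0.23 ± 0.30 and -0.17 ± 0.24 to 0.25 ± 0.19 and 0.10 ± 0.19, and neither was called.

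GAL, the galanin gene, was spread widely within both arms. GAL had lowest, median and highest values of 39.2, 151 and 449 CPM in CEPT EBs and 11.4, 73.7 and 863 CPM in Y27 EBs, and its log2 fold change was 0.35 ± 0.46 (edgeR adjusted p = 0.643). Without Y27 EB replicate 16 it was 0.96 ± 0.39 (edgeR adjusted p = 0.0619), and GAL was not called. Replicate 16 was the highest Y27 library, which was also the highest of its arm for TDGF1 (425 CPM by library total) and GDF3 (151 CPM). NANOG too was highest there, at 114 CPM against at most 104 in the other Y27 EBs, while POU5F1 was at 0 CPM. For CYP26A1 the log2 fold change was 0.38 ± 0.32, for SERPINE2 0.15 ± 0.17 and for PDGFRA -0.33 ± 0.30. ROR2 was nearly level between the arms at -0.01 ± 0.13, and for SFRP1 (-0.12 ± 0.11) and CPE (-0.14 ± 0.13) the differences were small beside the spread between libraries. The rest were NQO1 (0.08 ± 0.13), PTGDS (0.14 ± 0.30), PPP1R16B (-0.15 ± 0.35) and TMEM63A (-0.53 ± 0.41).

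The other 7 genes, EOMES, FOXA2, CLDN1, NODAL, DIO3, NKX2-1 and ETNPPL, had too few EB reads for the filter. EOMES had 63 reads over the 16 CEPT libraries and 92 over the 16 Y27 libraries, with 9 libraries of each arm at 0. FOXA2 had 71 and 52 reads. Tested without the filter, 0 of the 7 were called by edgeR, with 2 at an unadjusted p under 0.05 (DIO3 and NKX2-1, adjusted p = 0.136 and 0.0596). With all 48 libraries in the fit these 2 were called higher in CEPT EBs by edgeR, DIO3 with a log2 fold change of 1.86 ± 0.66 (adjusted p = 0.0284) and NKX2-1 with an adjusted p of 0.0274, though all EB reads of NKX2-1 came from CEPT EB replicate 7.

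**Figure D4:**
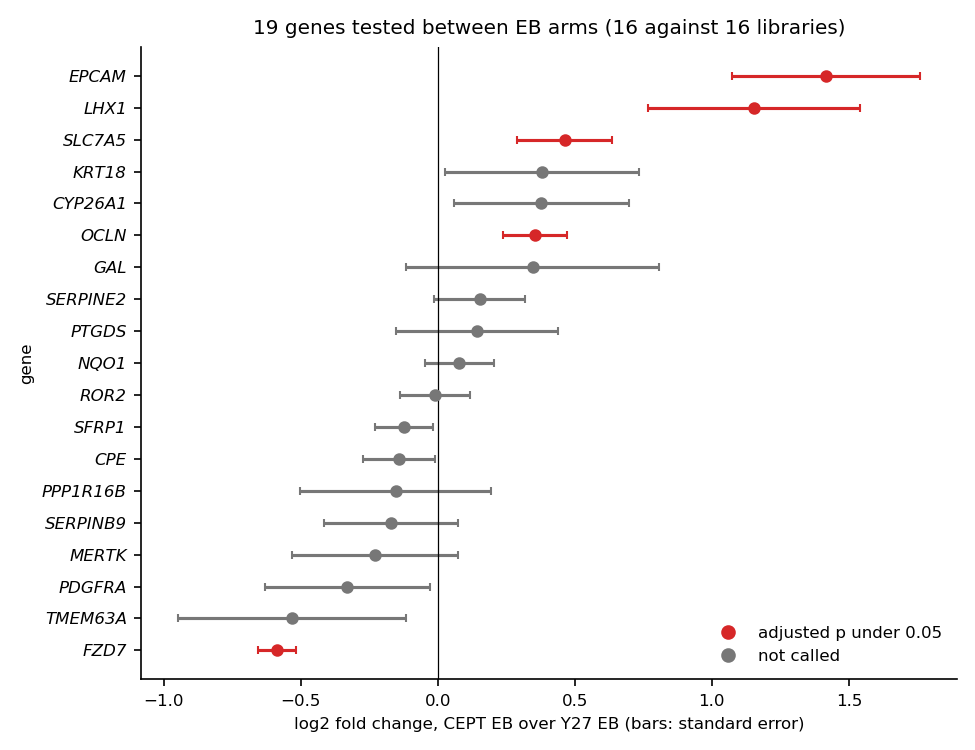
Log2 fold change of CEPT EBs over Y27 EBs with its standard error for the 19 genes tested, in order of size, with genes called at an adjusted p under 0.05 in red. FZD7 is the only called gene below 0, and EPCAM and LHX1 are the only genes above 1.

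Genes of the endoderm, Nodal, WNT and other lists were read against the 29.3% of all tested genes that were called between the arms, and with lists this short no difference from that share is drawn. Of the 8 endoderm genes on the panel 6 were tested, and LHX1 was the only call. SOX17 (1.07 ± 0.62) and HHEX (1.13 ± 0.55) had edgeR adjusted p-values of 0.214 and 0.128. None of the 5 tested genes of the Nodal list was called. Of 6 tested genes of the WNT, FGF and Notch list, which does not hold FZD7 or ROR2, the receptor FZD5 was higher in CEPT EBs (0.88 ± 0.21, edgeR adjusted p = 0.00161) and the Notch ligand DLL1 lower (-0.31 ± 0.11, adjusted p = 0.0266). The frizzled receptors FZD5 and FZD7, both called, thus changed in opposite directions. A further frizzled receptor, FZD3, was level between the arms (0.02 ± 0.10, edgeR adjusted p = 0.895). With library totals alone FZD5 was not called (log2 fold change 0.53, edgeR adjusted p = 0.0604). DLL1 was not called with upper-quartile factors or without Y27 EB replicate 9 (edgeR adjusted p = 0.0916 and 0.0512), and HHEX was called with all 48 libraries in the fit (edgeR adjusted p = 0.0205). Markers of other cells the EBs could hold gave 0 higher and 1 lower call among 7 tested pluripotency genes (SOX2), 0 and 2 among 7 neural genes (PAX3 and OLIG2), 0 of 4 tested mesoderm genes and 0 of 2 tested endothelial genes, while no trophoblast gene of the list was on the panel. The summed CPM of the pluripotency list was 3706 to 7403 in CEPT EBs and 4898 to 9248 in Y27 EBs, and of the mesoderm list 33.2 to 791 and 25.4 to 5742. LIN28A alone was at 3140 ± 708 CPM in CEPT EBs and 3720 ± 786 CPM in Y27 EBs, so the pluripotency sums rest mostly on that gene. The part of these lists in the differences between the arms was not tested.

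Within an arm, the tested genes were set against the summed reads of SOX17 and FOXA1, a pair of endoderm factors outside the 26 genes, on a log2 CPM scale. These sums held 0 to 101 reads per library in CEPT EBs and 0 to 120 in Y27 EBs. FOXA1 was not particular to endoderm here, at 81.4 ± 6.95 CPM there, 60.5 ± 8.33 in hESC and 23.8 ± 3.16 CPM in ectoderm. Pearson's r was above 0 for 16 of 19 genes in CEPT EBs and 15 of 19 in Y27 EBs. By r 0 of the 38 relations passed Benjamini-Hochberg adjustment of the permutation p-values, while 7 had an unadjusted p under 0.05, all in CEPT EBs. The other genes of the panel were not set against these sums, so whether such counts are particular to the 26 genes is not known. By Spearman's rho, LHX1 in CEPT EBs passed. The largest r was that of CPE in CEPT EBs (r = 0.75, permutation p = 0.00239, adjusted 0.0908; rho = 0.48, permutation p = 0.0623, adjusted 0.480; n = 16), and it dropped to r = 0.36 without the 2 libraries farthest from the median, so it rested on them. LHX1 in CEPT EBs had r = 0.49 (permutation p = 0.0555, adjusted 0.201) and rho = 0.74 (permutation p = 0.00129, adjusted 0.0490), with r = 0.80 without the 2 farthest libraries. In Y27 EBs the LHX1 values were r = 0.35 (permutation p = 0.193, adjusted 0.407) and rho = 0.33 (permutation p = 0.216, adjusted 0.580), and whether the arms differ in this was not tested.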

How the data were processed

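RNA of WA09 cells was measured in 48 libraries by RASL-Seq on a panel of 1113 probes. The authors counted reads per probe pair with a custom aligner, per the labels, and the deposited values are raw counts without normalization. The submitters' processing notes list hg38 and DESeq2, without a version or role. A merged count table was used for the 48 columns that match a sample label, checked to equal the sample tables, and 16 further columns matched no label and were not used. Groups came from the labels. Totals ran from 379810 to 5577868 reads, and counts of replicate libraries differed by more than sampling noise in every pair (chi-square over its degrees of freedom was 4.93 or more).

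Counts were summed per gene. Levels are CPM by library total. The EB arms were compared with edgeR 4.0.16 in R 4.3.3 (filterByExpr, TMM, robust quasi-likelihood test, two-sided, Benjamini-Hochberg over 382 genes, threshold 0.05), with no replicate block. Replicate numbers did not pair the arms: over 16 pairs the correlation of deviations ran from -0.473 to 0.245, and 3 exceeded 0.1. Relations within an arm used log2 CPM with a prior count of 2 and 100000 permutations. On simulated counts for this comparison (382 genes, 200 changed), 88.0% of the changed genes were called. This was 93.0% of the 2-fold but only 67.9% of the 1.5-fold changes. Of the calls 2.31% were false, and a single simulation without changes gave 0 calls. Scripts ran in Python 3.11.15 with pandas 2.3.3, scipy 1.17.1 and matplotlib 3.10.9.

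The genes and gene lists were chosen with earlier results of these data known. Values in every control library, and the lowest, median and highest of each EB arm, are given for the 10 genes with the highest endoderm mean, the 10 with the largest ratio to the next group and every gene called between the EB arms, and the others by means or ranges. Counts are of PCR products without molecular identifiers, so intervals and zero limits cover counting error only. Reads also depend on each probe pair, so levels are not compared between genes.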

Additional observations from a re-analysis of the deposited data

Results flagged for a closer look

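In groups of 4 libraries, a library was picked out when its gap to the nearest of the others, divided by the range of the group, exceeded Dixon's 95% critical value. This was done for 66 combinations of gene and group and picked out 6, or 9.09%, where chance picks about 1 in 20. Endoderm replicate 3 was the lowest for CYP26A1, at 12608 CPM against 14151 to 14279 in the others, and for OCLN, at 104 CPM against 134.7 to 135. Replicate 3 was the highest for KRT18 in ectoderm, at 621 CPM against 426 to 449, and in mesoderm, at 2239 CPM against 1416 to 1473. In hESC, replicate 1 was the lowest for CYP26A1, at 209.5 CPM against 256 to 261, and replicate 2 the highest for MERTK, at 88.5 CPM against 72.7 to 75.4. In ectoderm, mesoderm and endoderm, replicate 3 was the library with the fewest reads of its group (2283016, 2358531 and 2982467), and its part in these values was not tested.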

How the results depend on the processing

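Of 382 genes, 112 were called between the EB arms, 54 higher and 58 lower in CEPT. Scaling by library totals alone gave 165 (26 higher, 139 lower), upper-quartile factors 89 (61 and 28), DESeq2's median-ratio factors 104, DESeq2 itself 114, and fits without 1 library 99 to 118. Of the 26 genes, 5 were called, 4 with totals alone (CPE and SFRP1 gained, at -0.47 and -0.43; LHX1, OCLN and SLC7A5 lost), 6 with DESeq2 (KRT18 gained), 7 with all 48 libraries (DIO3 and NKX2-1 gained) and 4 to 6 without 1 library. The replicate block, though the numbers do not pair the arms, gave 90 genes and 4 of the 26, with SLC7A5 lost (log2 fold change 0.41, edgeR adjusted p = 0.0526). EPCAM, FZD7, LHX1 and OCLN were called in each of the 32 fits without 1 library.

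Genes that were not called changed sign in some settings and stayed uncalled. MERTK was at 0.31 with DESeq2, 0.11 with the block, 0.048 with the library total as covariate and 0.25 without the shallow library, and SERPINB9 at 0.10 there. ROR2 was at 0.031 with median-ratio factors, 0.074 with upper-quartile factors, 0.039 with at least 10 reads in every library, 0.036 with DESeq2, 0.014 without the shallow library and 0.019 with all 48. With totals alone NQO1 was at -0.20, PTGDS at -0.17 and SERPINE2 at -0.16. Leaving out 1 library gave ROR2 -0.049 to 0.039, MERTK -0.29 to 0.25 and SERPINB9 -0.24 to 0.10. The cause was not tested.

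The rule gave 20 to 36 genes over its alternatives, and the median ratio to the next group, 5.20, was 8.05 with TMM factors over 48 libraries. By Pearson's r, 0 relations within an arm passed adjustment under any alternative. The filter on low counts kept 7 of the 26 genes out of the EB test.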

Other observations

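Among the EB libraries, the highest value of a gene fell repeatedly in a few libraries. CEPT EB replicate 16 was the highest of its arm for 7 of the 26 genes (CLDN1, FZD7, NODAL, OCLN, PDGFRA, ROR2 and SERPINE2, by CPM of the library total), replicate 7 for 6 (CPE, DIO3, EPCAM, GAL, KRT18 and NKX2-1) and replicate 8 for 5 (CYP26A1, PPP1R16B, SERPINB9, SFRP1 and SLC7A5). In the Y27 arm, replicate 15 was the highest for 7 (CYP26A1, KRT18, LHX1, MERTK, PDGFRA, SERPINB9 and TMEM63A). CEPT EB replicate 16 also held the most HAND1 of its arm, 541 CPM against at most 138 in the others. In hESC, replicate 1 was the lowest of the 4 libraries for 20 of the 26 genes.

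A single SFRP1 probe of 3 was called lower in CEPT EBs when probes were tested separately (log2 fold change -0.51 ± 0.10, edgeR adjusted p = 0.000215), while the others gave -0.16 and -0.07 and were not called. Of 50 probes tested for these genes, 9 were called. Counted by gene, 5 of the 19 had a called probe, beside 120 of all 373 genes tested by probe. These were EPCAM, FZD7, LHX1, OCLN and SFRP1, so SFRP1 was among them and SLC7A5 was not.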
